A study of Mus musculus with 4 samples.

Results

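The D-type cyclins, their kinase partners CDK4 and CDK6, 4 inhibitors of these kinases and the retinoblastoma protein form the switch by which outside signals reach the cell cycle. Described here are the 10 genes of this switch, Ccnd1, Ccnd2, Ccnd3, Cdk4, Cdk6, Cdkn1a, Cdkn1b, Cdkn2c, Cdkn2d and Rb1, in RNA-seq of mouse group 3 innate lymphoid cells (ILC3s) kept in medium or stimulated with TL1A. They are 10 of 24343 genes in the deposited table, and all were found. The genes were named one by one for their place in the pathway, and chosen on measured values in that earlier results of the TL1A comparison were known. Their differences between TL1A and medium, and whether each gene passed the threshold, are therefore a description and not independent evidence, and no p-value is given for them.

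ILC3s are lymphocytes without antigen receptors that respond to cytokines at mucosal surfaces, and TL1A is a cytokine of the TNF superfamily that acts through the receptor DR3. Every library came from mice of the genotype IL23R-GFP/WT, in which 1 copy of the IL-23 receptor locus carries a GFP reporter, and from cells sorted as Lin-, CD127+ and IL23R-GFP+. The groups were 2 libraries of cells in medium and 2 of cells treated with TL1A. The sources used here do not state the age and number of the mice, the tissue of origin, the TL1A dose or the length of treatment. Separate animals or cultures are not named for the libraries of a group, so their spread may be technical.

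A D-type cyclin binds CDK4 or CDK6, and the active pair phosphorylates the retinoblastoma protein, which then releases E2F transcription factors that switch on genes for DNA synthesis. INK4 proteins, among them those of Cdkn2b, Cdkn2c and Cdkn2d, bind CDK4 and CDK6 and keep the cyclin out. The CIP/KIP proteins p21 (Cdkn1a) and p27 (Cdkn1b) inhibit CDK2 complexes and can be held away from them by complexes of D cyclins with CDK4 or CDK6. In lymphocytes, cyclin D2, cyclin D3 and CDK6 are known as the prominent forms of the cyclin and kinase, and a high level of p27 is known as a mark of resting cells.

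Ccnd2 and Cdk6 gave the largest differences among the 10 genes, with Ccnd1 also higher with TL1A, whereas Cdkn1b and Cdkn2d were lower. Cdk4 and Rb1 stayed near their medium levels. Ccnd3 and Cdkn2c were hardly counted and were not tested. Of the 8 genes with enough reads, 3 passed as higher and 2 as lower at an adjusted p under 0.05 in the fit of all genes (edgeR quasi-likelihood test, Benjamini-Hochberg), and 3 did not pass. Over all 9852 genes tested, 20.6% passed as higher and 21.7% as lower. The libraries of the groups did not overlap for 7 of the 8 genes and for 72.2% of all genes tested. The median log2 fold change was 0.43 over the 8 genes and -0.03 over all genes.

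Promoter sequence from RefSeq was at hand for 7 of the 10 genes (not for Ccnd1, Ccnd2 and Rb1). It is shown for the 3 of them that passed the threshold, Cdk6 on the higher side and Cdkn1b and Cdkn2d on the lower side. Each run is 5′ to 3′ on the gene's strand, begins 250 bases before the RefSeq start of transcription and ends at that start or, for Cdk6 and Cdkn2d, at the first start of a GENCODE transcript before it. Coordinates are of the build GRCm38.p6 and are not used with the counts, which were made on mm9. Capitals mark a match to an E2F-type motif.
Cdk6, chr5:3343643-3343731, plus strand: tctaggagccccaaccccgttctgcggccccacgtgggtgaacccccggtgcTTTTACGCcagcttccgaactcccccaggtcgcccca
Cdkn1b, chr6:134920151-134920400, plus strand: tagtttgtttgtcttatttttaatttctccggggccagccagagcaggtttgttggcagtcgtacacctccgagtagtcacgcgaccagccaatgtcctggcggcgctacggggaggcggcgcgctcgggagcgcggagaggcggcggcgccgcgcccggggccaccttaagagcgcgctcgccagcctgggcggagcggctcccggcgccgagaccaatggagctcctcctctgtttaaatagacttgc
Cdkn2d, chr9:21291408-21291459, minus strand: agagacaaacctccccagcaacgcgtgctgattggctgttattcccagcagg

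Motifs of 5 factor families were searched on both strands of the 250 bases before each start, with overlaps allowed: TTTNNCGC for E2F, GTAAACA for FOXO, GGGANTTTC for NF-κB, TGANTCA for AP-1 and TTCNNNGAA for STAT factors. The Cdk6 window held 1 match, to the E2F letters, at position -198 from the start of transcription. The windows of Cdkn1b, Cdkn2d and Cdk4 held none of the 5 motifs, and the only other match among the 7 genes was 1 to the FOXO letters, at -243 of a Ccnd3 start. Over all 32851 promoter windows, 4.28% held the E2F letters, 3.17% the FOXO letters, 0.941% the NF-κB letters, 6.75% the AP-1 letters and 7.02% the STAT letters. These are matches of letters in a window, which do not show binding.

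Among the D-type cyclins, Ccnd2 (cyclin D2, row NM_009829) was counted with 1346 and 1329 reads in the medium libraries and with 23162 and 26406 in the TL1A libraries. In CPM, a gene's reads per 1000000 reads of the effective library size, the medium values were 107 and 99.5 and the TL1A values 2154 and 2277. Both TL1A libraries lay far above both medium libraries, and the libraries of a group lay close together. The mean went from 103 ± 5.4 to 2215 ± 86.6 CPM (SD, n = 2), a 21.4-fold difference (log2 fold change 4.42, SE 0.08). It ranked 106 among the 9852 genes when ordered from the largest increase down.

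Ccnd1 (cyclin D1) was counted at a much lower level. The medium libraries held 65 and 82 reads (row NM_007631) and the TL1A libraries 122 and 134, or 5.18 and 6.14 against 11.3 and 11.6 CPM. The groups did not overlap, and the TL1A libraries were nearly equal. The difference was 2.02-fold (log2 fold change 1.01, SE 0.22).

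Ccnd3 (cyclin D3) could not be followed. Its 3 deposited transcript rows together had 1 read, in medium replicate 2, and 0 in the other 3 libraries, where a count of 0 allows up to 0.239 to 0.279 CPM (3 reads per library, counting error only). Counting was per transcript, and HTSeq sets a read that fits more than 1 row aside as ambiguous; such reads were 33.7% to 34% of the assigned and ambiguous reads together. In the GENCODE transcripts matched to these rows, 145 bases of NM_007632 and 0 bases of NM_001081635 and NM_001081636 are not shared with another row. The values therefore do not give the level of cyclin D3 RNA.

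Of the kinases, Cdk6 rose and Cdk4 did not pass. For Cdk6 (row NM_009873) the medium libraries held 55 and 47 reads and the TL1A libraries 380 and 450, or 4.38 and 3.52 against 35.3 and 38.8 CPM. No library of either group came near the other group. The mean went from 3.95 ± 0.608 to 37.1 ± 2.44 CPM (SD, n = 2), a 9.38-fold difference (log2 fold change 3.23, SE 0.19), which ranked 186 from the largest increase.

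Cdk4 (row NM_009870) was counted with 3491 and 3626 medium reads and 2846 and 3211 TL1A reads. Its medium levels of 278 and 272 CPM overlapped the TL1A levels of 265 and 277 CPM, the only overlap among the 8 genes. The log2 fold change was -0.02 (SE 0.07). Its sign depended on the scaling: it was 0.0035 with RLE scaling factors, and -0.28 with no scaling factor, where Cdk4 was called lower. That last setting moved the median of all genes by -0.26, so that Cdk4 stood at the median of all genes there (-0.29) as in the main analysis.

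The CIP/KIP inhibitor gene Cdkn1b (p27) fell. The medium libraries held 1771 and 2084 reads (row NM_009875) and the TL1A libraries 732 and 761, or 141 and 156 against 68.1 and 65.6 CPM. Both TL1A libraries lay below both medium libraries by more than the spread within either group. The mean went from 149 ± 10.7 to 66.8 ± 1.75 CPM (SD, n = 2), and the difference was 2.22-fold lower (log2 fold change -1.15, SE 0.10).

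Its relative Cdkn1a (p21) was barely counted. Row NM_007669 held 16 and 29 medium reads and 28 and 37 TL1A reads, and row NM_001111099 had 1 read in medium replicate 1 and 0 in the others. Summed over the rows, the medium levels were 1.35 and 2.17 CPM and the TL1A levels 2.6 and 3.19 CPM, so the gap between the groups was smaller than that between the medium libraries. The log2 fold change was 0.71 (SE 0.41) and did not pass. It was 0.41 without medium replicate 1 and 1.12 without medium replicate 2. In the matched GENCODE transcripts, 1114 of the 1913 bases of NM_007669 and 123 of the 922 bases of NM_001111099 are not shared, and reads within the shared bases are not in these counts.

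Among the INK4 inhibitors, Cdkn2d (p19) fell and Cdkn2c (p18) was not measurable. Cdkn2d (row NM_009878) was counted with 666 and 700 medium reads and 343 and 354 TL1A reads, or 53 and 52.4 against 31.9 and 30.5 CPM. The libraries of each group were nearly equal and the groups lay apart. The difference was 1.69-fold lower (log2 fold change -0.76, SE 0.12). Over its 2 rows, Cdkn2c held 4 and 2 medium reads and 2 and 0 TL1A reads. Its rows have 1580 (NM_001301368) and 215 bases (NM_007671) that are not shared in the matched transcripts, and these few reads cannot show a difference.

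Rb1 (the retinoblastoma protein, row NM_009029) was counted with 889 and 951 medium reads and 771 and 1004 TL1A reads, or 70.8 and 71.2 against 71.7 and 86.6 CPM. TL1A replicate 1 was almost level with the medium libraries, and only TL1A replicate 2 stood clearly higher, although the groups did not overlap. The log2 fold change was 0.16 (SE 0.12), did not pass, and was -0.10 with no scaling factor.

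**Figure D1:**
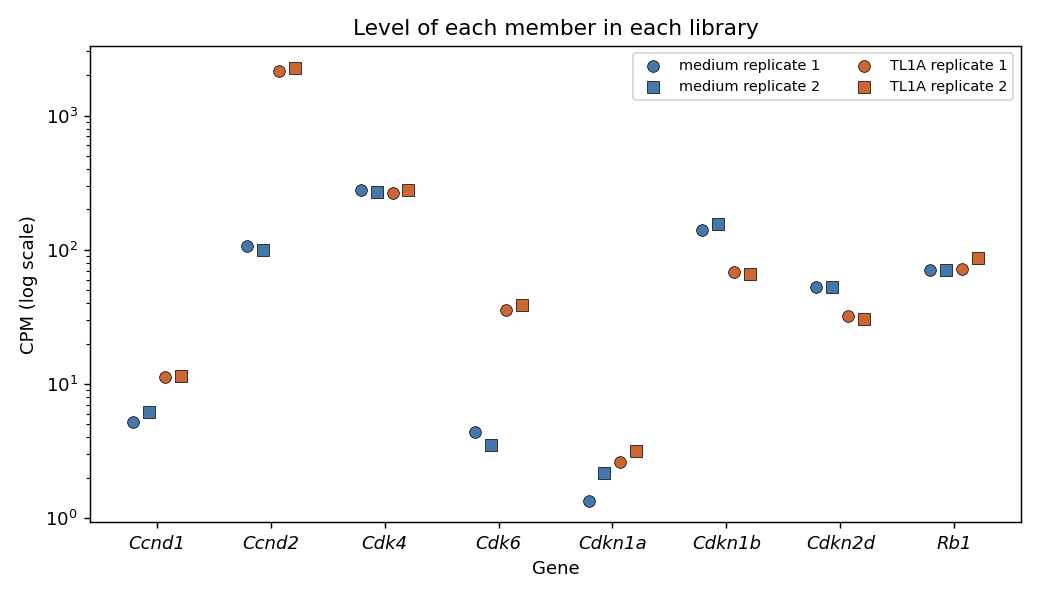
Level of the 8 tested genes in each library, in CPM on a log axis; blue is medium, orange is TL1A, circles and squares are replicates 1 and 2. Ccnd2 goes from 107 and 99.5 to 2154 and 2277 CPM, Cdkn1b and Cdkn2d go down, and the Cdk4 libraries overlap; Ccnd3 and Cdkn2c, with almost no reads, are not drawn.

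**Figure D2:**
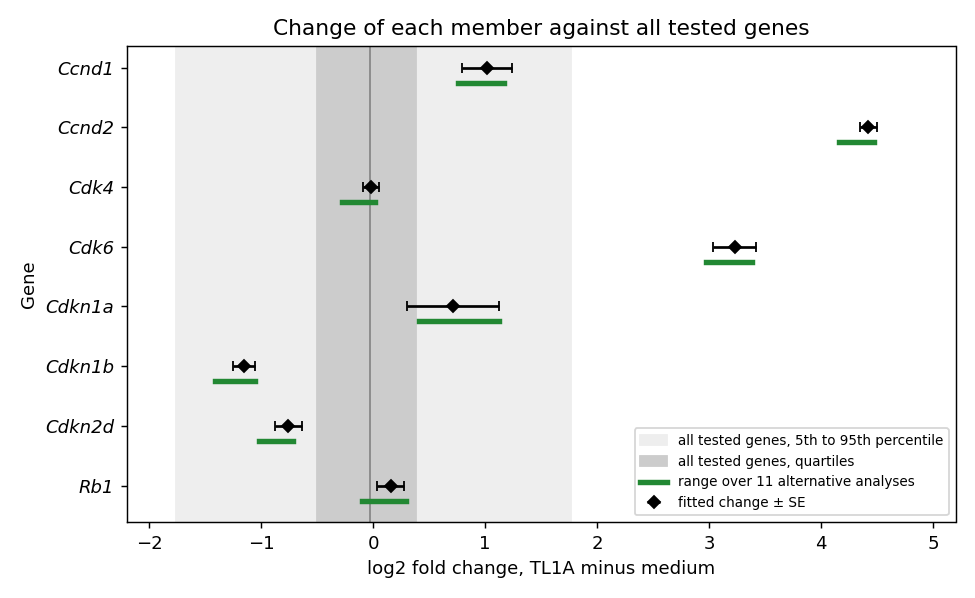
Log2 fold change of each gene, TL1A minus medium (diamonds with SE), with the range over 11 alternative analyses (green) and the spread of all tested genes (grey bands, 5th to 95th percentile and quartiles). Ccnd2 and Cdk6 lie beyond the 95th percentile of 1.77, Ccnd1, Cdkn1a, Cdkn1b and Cdkn2d lie outside the quartiles but within the wider band, and Cdk4 and Rb1 lie between the quartiles of -0.50 and 0.39.

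Levels of different genes can be set side by side only per length, here as CPM per kb of the GENCODE transcript matched to the deposited row, for the 7 genes with 1 row. The order between genes assumes even coverage over the full length of that transcript, which was not tested. In medium the order by mean level was Cdk4 (133.8 ± 2.21), Cdkn1b (62.1 ± 4.45), Cdkn2d (37.1 ± 0.3), Ccnd2 (16.3 ± 0.854), Rb1 (15.3 ± 0.0664), Ccnd1 (1.51 ± 0.183) and Cdk6 (0.343 ± 0.0527 CPM per kb, SD, n = 2). With TL1A it was Ccnd2 (350.0 ± 13.7), Cdk4 (131.9 ± 4.18), Cdkn1b (27.9 ± 0.73), Cdkn2d (21.9 ± 0.686), Rb1 (17 ± 2.26), Cdk6 (3.22 ± 0.212) and Ccnd1 (3.06 ± 0.039 CPM per kb). Ccnd2 thus moved from the fourth place to the first. Neighbours did not overlap except Cdk6 and Ccnd1 with TL1A, and Ccnd2 and Rb1 in medium lay closer together than the libraries of Ccnd2. In both conditions Cdk6, at 11525 bases the longest of these transcripts, stayed far below Cdk4 per length.

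Ratios between genes within a library do not depend on the scaling of libraries. On the CPM per kb scale, Ccnd2 per Cdk4 was 0.125 and 0.119 in the medium libraries and 2.64 and 2.67 in the TL1A libraries. Per length, Ccnd2 RNA was thus below Cdk4 RNA in each medium library and above it in each TL1A library. Cdk6 per Cdk4 went from 0.00281 and 0.00231 to 0.0238 and 0.025. Ccnd2 per Ccnd1 was 12.2 and 9.58 in medium and 112 and 116 with TL1A, so that cyclin D2 RNA exceeded cyclin D1 RNA throughout and by more with TL1A.

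The next ratios set Ccnd2 and Cdk4 against the inhibitor genes with 1 row, Cdkn1b and Cdkn2d, which both fell. Ccnd2 per Cdkn1b (p27) was 0.287 and 0.241 in medium and 12 and 13.1 with TL1A, a difference of 5.57 on the log2 scale and the largest of the 10 ratios computed. Cdk4 per Cdkn2d was 3.63 and 3.59 in medium and 5.75 and 6.29 with TL1A, although Cdk4 itself did not pass. The INK4 gene Cdkn2b, described with the turnover genes, went the other way, and Cdkn1a did not pass with a log2 fold change of 0.71, so these ratios do not stand for all inhibitors. Cdkn1b per Cdkn2d went from 1.58 and 1.77 to 1.27 and 1.28, a difference of -0.39 on the log2 scale. With 2 libraries per condition, whether Cdkn1b and Cdkn2d were lowered unequally was not tested. Rb1 per Cdk4 moved least, with 0.112 and 0.116 in medium and 0.119 and 0.138 with TL1A.

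**Figure D3:**
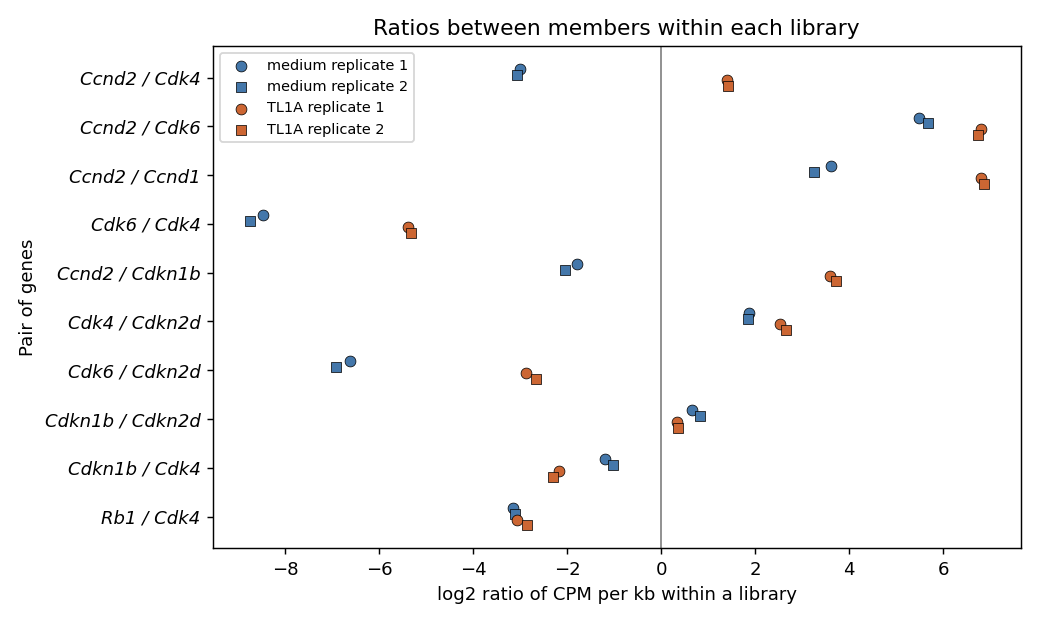
Log2 ratio of CPM per kb for 10 pairs of genes, within each library (blue medium, orange TL1A, circles and squares replicates 1 and 2). Ccnd2 per Cdk4 and Ccnd2 per Cdkn1b cross 0, the line of equal level, between medium and TL1A, and Rb1 per Cdk4 shows the smallest shift.

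The other genes of the pathway were read from 6 lists, chosen with earlier results of these data known. The tested genes named from them were mostly taken for the smallest p in the same comparison. Their adjusted p-values are therefore a description and not independent evidence. Between the D cyclins and DNA synthesis stand the G1/S cyclins and kinases, the other pocket proteins and the E2F factors. Of 9 tested genes in that list, 0 passed as higher and 1 as lower, against 20.6% and 21.7% of all genes (edgeR; 0 higher also at an unadjusted p under 0.05, with DESeq2 and with limma-voom, and 1 without medium replicate 2). The exception was Ccnh, the cyclin of the CDK-activating kinase, with mean levels of 103 CPM in medium and 52.4 with TL1A (log2 fold change -0.97, SE 0.13; adjusted p = 0.000723), while its partner genes Cdk7 and Mnat1 had log2 fold changes of -0.08 and -0.07 and did not pass (-0.34 for Cdk7 with no scaling factor, where it passed). Rbl1, the gene of the pocket protein p107, gave 0.27 on the log2 scale (SE 0.19), Cdc25a, a phosphatase that activates CDK2, 0.36 (SE 0.35), and Cdk2 0.57 (SE 0.55); none passed. For Cdc25a the log2 fold change was 1.01 and passed without medium replicate 2, and was -0.070 without medium replicate 1. Ccne2, Rbl2, E2f2, E2f3 and Tfdp1 had 0 reads in every library, and all but E2f2 have several deposited rows. Another 6 of the 20 listed genes had too few reads to be tested.

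Of 17 tested S phase genes that E2F factors control, 6 rose, 2 fell and 9 did not pass, beside 20.6% higher and 21.7% lower among all genes, with a median log2 fold change of 0.25; without TL1A replicate 2 only 3 passed as higher. Mcm3, a subunit of the replicative helicase, rose from 42.2 to 127 CPM on average (log2 fold change 1.59, SE 0.11; adjusted p = 3.02e-05 in edgeR). Rrm2, a subunit of ribonucleotide reductase, went from 22 and 15 reads to 84 and 107 (log2 fold change 2.56, SE 0.33), and the replication factor gene Mcm10 rose by 1.95 on the log2 scale (SE 0.33). Pola1, the catalytic subunit of DNA polymerase alpha, fell by 1.34 on that scale (SE 0.14). Mcm5, Cdc6, Uhrf1, Fen1, Slbp and Ung had 0 reads, each with several rows.

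Of 12 tested mitosis genes, 2 rose and 0 fell, beside 20.6% and 21.7% of all genes (edgeR; 1 lower at an unadjusted p under 0.05, 0 with DESeq2 and with limma-voom, and 1 with no scaling factor), and the median log2 fold change was 0.11. Top2a (topoisomerase II alpha) rose from 283 and 249 reads to 492 and 555 (log2 fold change 1.19, SE 0.15, adjusted p = 0.000647). The call of Cenpf, a kinetochore protein gene, rested on few reads, 3 and 5 in medium and 10 and 43 with TL1A (log2 fold change 2.88, SE 0.81). It did not pass with limma-voom or without medium replicate 1, medium replicate 2 or TL1A replicate 2; in the last case the log2 fold change was 1.57, and without TL1A replicate 1 it was 3.55. Aurkb, a mitotic kinase gene, stood at -1.01 (SE 0.37) and Bub1b, of the spindle checkpoint, at 0.74 (SE 0.38) on the log2 scale, and neither passed. Mki67, whose product Ki-67 marks cycling cells, was at 3.1 CPM in medium and 3.73 with TL1A and did not pass. Bub1 and Tpx2, each with several rows, had 0 reads, and another 7 of the 21 listed genes had too few reads to be tested. Apart from Top2a and Ccnf, no tested gene of this list had more than 50 reads in any library. With so few reads only large differences can pass, so the few calls do not show unchanged levels.

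The list of other CDK inhibitors and genes of D cyclin and p27 turnover also holds the co-chaperone gene Cdc37. Of its 13 tested genes, 5 rose, 5 fell and 3 did not pass. All genes likewise divided about equally, with 20.6% higher and 21.7% lower. The list had a median log2 fold change of -0.0022. The number that fell was 3 without medium replicate 1, 2 without medium replicate 2, 1 without TL1A replicate 1 and 2 without TL1A replicate 2. Cdkn2b, which encodes the INK4 inhibitor p15, rose from 0 and 4 reads to 69 and 82 (log2 fold change 5.36, SE 0.66, adjusted p = 0.000572), in the opposite direction to Cdkn2d. Its size depended on the few medium reads, with 4.44 without medium replicate 1 and 9.31 without medium replicate 2. Cdc37, a co-chaperone that helps to fold CDK4 and other kinases, went from 295 to 1005 CPM (log2 fold change 1.77, SE 0.06). Cks1b, a cofactor for the ubiquitination of p27, rose from 7.17 to 20.3 CPM, and Skp1, a core subunit of SCF ubiquitin ligases, fell by 0.46 on the log2 scale (SE 0.07). Cdkn1c, the third CIP/KIP gene, had 0 reads over its rows.

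Of 20 tested transcription regulators of D cyclins and CDK inhibitors, 7 rose, 3 fell and 10 did not pass, beside 20.6% higher and 21.7% lower among all genes (median log2 fold change 0.28); 9 fell with no scaling factor. Bcl6, a repressor of Ccnd2 in B cells, fell from a mean of 391 CPM to one of 60.1 (log2 fold change -2.70, SE 0.15; adjusted p = 9.92e-06). Stat5b, a transcription factor downstream of cytokine receptors, fell from 42.2 to 10.6 CPM, while its paralogue Stat5a, at a much lower count, rose from 13 and 14 reads to 36 and 38; both have 2 rows. The call of Stat5a was lost with DESeq2 and without TL1A replicate 1 or TL1A replicate 2. Of the NF-κB subunit genes, Nfkb1 rose from 237 to 501 CPM and Rel from 13.7 to 45.2 CPM, while Rela, at 384.7 CPM in medium and 359.7 with TL1A, did not pass. Foxo1, whose product promotes Cdkn1b and represses Ccnd2, stood at -0.08 on the log2 scale (SE 0.08) and did not pass. Foxo1 and Rela were called lower with no scaling factor (-0.33 and -0.35), where the median of all genes was -0.29. Myc and Stat3 had 0 reads, each with several rows.

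For p53, the known activator of Cdkn1a, 16 other target genes were tested; 7 fell, 1 rose and 8 did not pass, beside 21.7% lower and 20.6% higher among all genes, with a median log2 fold change of -0.41. Gadd45a fell from a mean of 73.9 CPM to one of 8.36 (log2 fold change -3.14, SE 0.14; adjusted p = 3.24e-06), and the DNA repair genes Polk and Xpc fell by 1.23 (SE 0.10) and 1.20 (SE 0.13) on that scale. Fas, a death receptor gene with 2 rows, rose from 20 and 51 reads to 1558 and 1533. Its log2 fold change was 5.66 (SE 0.28), and 6.46 without medium replicate 2. Whether p53 or other pathways took part in the differences of any gene of this list was not tested. Ei24, Perp and Eda2r had 0 reads, and Perp has a single row.

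**Figure D4:**
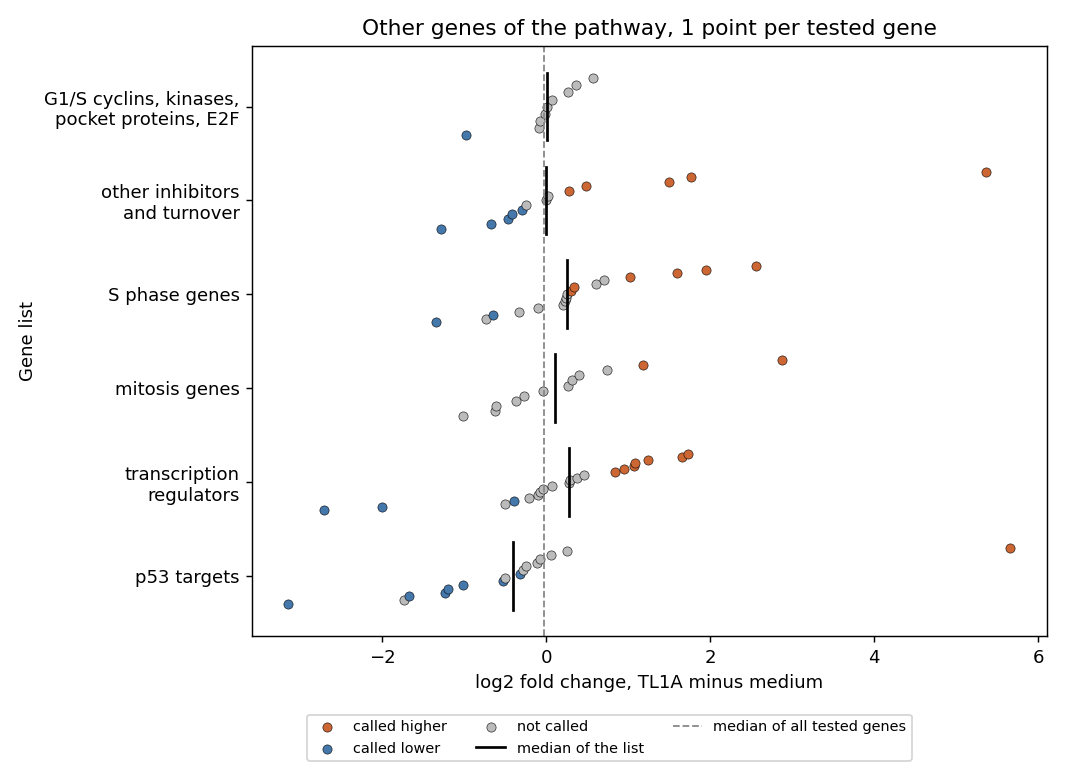
Log2 fold change, TL1A minus medium, of each tested gene of 6 pathway lists (1 point per gene, orange called higher, blue called lower, grey not called; black bars are list medians, the dashed line the median of all tested genes). The list of G1/S cyclins, kinases, pocket proteins and E2F factors has 1 coloured point of 9, and the single far outlying points of the inhibitor and p53 lists are Cdkn2b at 5.36 and Fas at 5.66.

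The libraries held 11495636 to 12605164 reads assigned to transcripts. With no scaling factor, 1310 of the 9852 genes passed as higher and 3475 as lower, in place of 2027 and 2141. Of the summed genes, 64.1% of those with several rows had under 10 reads over the 4 libraries, against 49.7% of those with 1 row. The sorted cells carried the ILC3 markers Il7r, Il23r and Id2 in every library, and Kit had 1 read over 2 rows. Il7r is the gene of CD127, and cells were sorted on CD127 and the IL23R reporter. Reads of Il7r and Il23r are therefore no independent sign of what the cells were. Of 12 such markers, 6 fell, 3 rose, 2 did not pass and 1 was not tested (7952 and 8321 against 7003 and 6799 CPM in sum). Summed T cell markers were at 498 and 514 CPM in medium and 211 and 206 with TL1A (2 of 7 fell, 0 rose), mainly from Cd4 and Lat, while Cd3e had at most 20 reads in a library. Summed B cell markers went from 154 and 167 to 849 and 777 CPM through Blk and Cd79b, whereas Ms4a1 and Pax5 were at 0 reads in every library. Of 8 myeloid markers 1 rose and 2 fell (116 and 133 against 74.4 and 79.4 CPM in sum), of 6 ILC2 markers 1 rose and 2 fell (64.3 and 74.4 against 164 and 150), of 7 ILC1 and NK cell markers 1 rose and 2 fell (14.5 and 9.89 against 27.5 and 21), and of 5 epithelial markers 0 rose and 1 fell (9.4 and 4.04 against 1.3 and 0.517). The ILC2 sum rose mainly through Klrg1 (27.6 to 135 CPM on average), while Il1rl1 (13.2 to 2.56) and Il17rb (15.2 to 5.36) fell. The myeloid sum fell mainly through Cd14 (47.5 to 5.22), while Adgre1 rose (8.62 to 16.1). The ILC1 and NK cell sum rose mainly through Gzmb (0.55 to 11.2), while Gzma (5.86 to 1.16) and Klrk1 (2.43 to 0.412) fell. Itgam, Eomes and Cd8a, each with several rows, had 0 reads. Whether other cells took part in the differences of the cyclin, kinase and inhibitor genes was not tested, and in bulk RNA a change in the make-up of the cells and a change of RNA per cell cannot be told apart.

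Genes overlap some of the 10 in the RefSeq table: LTO1 with Ccnd1, a long noncoding RNA gene (9330179D12Rik) with Ccnd2, Bysl and Gm41590 with Ccnd3, Tspan31 with Cdk4, Gm36470 and Gm29868 with Cdk6, and Lpar6 and Mir687 with Rb1. The sources used here do not state the strand setting of the counting. Reads that fit both a gene of the 10 and a counted neighbour are set aside as ambiguous, which would lower its level. Reads from a neighbour without a row of its own could be counted with the gene. Neither effect was measured. Cdkn1a, Cdkn1b, Cdkn2c and Cdkn2d have no overlapping gene there.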

How the data were processed

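RNA-seq was made from 2 medium and 2 TL1A libraries with a SMARTer kit for low RNA input, per the labels' protocols. CASAVA, STAR and HTSeq were used on build mm9, per the submitters' processing notes. The authors deposited raw read counts per RefSeq transcript accession. The 5 HTSeq summary rows (69.9% to 71.3% of a column's numbers) were left out. Of 33535 transcript rows, 33154 matched a symbol in a RefSeq table of GRCm38.p6, and rows were summed per gene. The plan's test suited these counts: edgeR 4.0.16 in R 4.3.3 (quasi-likelihood, TMM, filterByExpr with a minimum count of 10, group as the only term, two-sided, Benjamini-Hochberg over 9852 genes, threshold 0.05), checked on simulated data. SE is the log2 fold change over the square root of F; folds are 2 to the fitted log2 fold change. An exact permutation test of 2 against 2 cannot go below p = 0.333, so calls rest on spread pooled across genes. Neither pair of libraries was a repeat deposit (chi-square per degree of freedom 12.4 and 8.02). Alternatives used limma 3.58.1, DESeq2 1.42.0 and other settings. The 10 genes, the lists and the motifs were chosen with earlier results of these data known. Named are the 10 genes, up to 4 genes per list with the smallest p, and listed genes at 0 reads. Cdk7, Mnat1, Mki67, Foxo1, Stat5a, Rela, Mcm2, Mcm4, Mcm6 and Mcm7 were picked after their values were seen.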

Additional observations from a re-analysis of the deposited data

How the results depend on the processing

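The 3 higher and 2 lower calls among the 10 genes were the same in number under each of 11 alternatives except that Cdk4 made 3 lower with no scaling factor; Ccnd1, Ccnd2, Cdk6, Cdkn1b and Cdkn2d kept direction and call in all 11. Log2 fold changes changed sign for Cdk4 (0.0035 with RLE factors and with DESeq2, -0.044 to 0.018 with single libraries left out), Rb1 (-0.10 with no scaling factor), Mnat1 (-0.17 to 0.052) and Cdc25a (-0.070 to 1.01; both with single libraries left out); these genes did not pass in the main analysis, and the cause was not tested. With no scaling factor, 2 G1/S genes, 9 transcription regulators and 1 mitosis gene were lower. Of the turnover and inhibitor genes, 3 were lower with DESeq2 and 3 with the replicate number as a block; 1 mitosis gene was higher with limma-voom. Leaving out single libraries gave 0 to 1 higher G1/S genes, 1 to 3 lower turnover and inhibitor genes, 3 to 8 higher S phase genes and 1 to 2 higher mitosis genes; a lone library is then assumed to vary like the other group. The labels do not say that a number pairs libraries, and deviations of same-numbered libraries correlated at -0.10 across genes. Numbers crossed as a block, chosen after seeing the data, gave 2295 higher and 2439 lower genes, against 1736 and 1806 with numbers as given, with 3 and 2 of the 10 in each. Cdkn2c and Cdkn1a were counted with few reads, which limits their precision, and whether more depth would change this was not tested. For Ccnd3, most bases are shared between its rows, and reads within shared bases are set aside at any depth.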
